A study of Mus musculus with 4 samples.

Results

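The genes described here carry glucose into the cell, break it down to pyruvate and lactate, feed it into the pentose phosphate pathway, or sense and answer low oxygen. They are 40 named genes chosen by their known function, with earlier results of these data known, out of 17476 genes in the count table. All 40 were among the 14239 genes with enough reads to be tested. They fall into 7 arms of the pathway, which are described one by one in the order in which glucose passes through them.

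Cells take up glucose through facilitative transporters, trap it by phosphorylation and split it into triose phosphates, which the lower steps of glycolysis turn into pyruvate. When oxygen is scarce, prolyl hydroxylases no longer mark the hypoxia-inducible factor HIF for destruction, and HIF switches on many of the same glycolytic genes as well as genes of mitophagy, protein folding and collagen synthesis. Neutrophils and their immature relatives are known for living mainly on glycolysis, and tumours are often low in oxygen.

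The cells were myeloid-derived suppressor cells (MDSCs), immature myeloid cells that hold back T cells, and the comparison was between cells with a mutated and an intact Trem2 gene, which encodes a lipid-sensing myeloid receptor. The Trem2 mutant group held 2 libraries (Trem2 mutant 1 and Trem2 mutant 3, after the numbers in the table), and the wild-type (WT) group held 2 (WT 1 and WT 2). In both groups marrow precursors from the femur, of Trem2 mutant or of C57BL/6 donors, had been grown into MDSCs in culture and injected into male mice of the immunodeficient NRG strain. The recipients were challenged at 6 weeks of age with TRAMP-C1, a mouse prostate cancer line, under the skin, and received the MDSCs 4 weeks later. Tumours were taken 6 h after the injection, digested for 45 minutes at 37°C and sorted for cells positive for CD45, CD11b and GR1. The strain label is C57BL/6 for both genotypes, and the kind of mutation was not given in the sources used here. Nothing in the gate separates the injected cells from the recipient's own myeloid cells. Whether both libraries of a genotype stem from different animals or cultures is not known from the labels, so p-values reflect the spread among these libraries alone, which may be technical.

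The libraries held 10306674 and 9820893 reads in genes in Trem2 mutant 1 and 3, and 8037733 and 8077966 in WT 1 and 2. Levels are given as CPM, read counts brought to a common library size, after scaling with TMM, which sets the typical gene equal between libraries. Trem2 itself had 22.9 and 20.96 CPM in Trem2 mutant 1 and 3, against 44.2 and 52.2 CPM in WT 1 and 2 and was lower in the mutant (log2 fold change -1.14, SE 0.125, edgeR adjusted p = 0.00157). In Trem2 mutant 1 a single noncoding gene, Gm42418, took 13.9% of the reads, against 0.418% in Trem2 mutant 3, 1.04% in WT 1 and 0.258% in WT 2. Scaled by library totals, the mutant pair differed more than the WT pair did, over genes with at least 20 reads. The median squared difference relative to counting noise was 6.22 in mutant cells and 2.01 in WT cells. These totals include the reads of Gm42418. The factors by which TMM adjusts the totals were 0.811 and 0.949 in mutant cells, against 1.146 and 1.133 in WT cells. The measure thus holds shifts of all genes within a pair, which TMM takes out, and their part was not tested. In bulk RNA of this kind, fewer cells of a type and less RNA per cell cannot be told apart.

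Markers of granulocytes moved with the genotype and have to be read beside every arm. Of the 12 markers of immature granulocytes, 10 were higher in the mutant, and their summed level was 18997 and 13733 CPM in mutant cells, against 2601 and 2421 CPM in WT cells. Of the 10 markers of mature neutrophils, 9 were higher, with summed levels of 22055 and 20531 CPM in mutant cells, against 6586 and 6754 CPM in WT cells. Both granulocyte lists were thus several-fold higher in both mutant libraries, by 6.52-fold for the immature and 3.19-fold for the mature list on average. Monocyte markers passed in 5 of 8 cases, all higher, and summed to 2624 and 2318 CPM in mutant cells, against 1391 and 1569 CPM in WT cells. Macrophage markers passed in 4 of 9 cases, all higher, and summed to 1152 and 910.0 CPM in mutant cells, against 902 and 991 CPM in WT cells, so these sums overlapped. On average these sums were 1.67-fold higher for monocyte and 1.09-fold higher for macrophage markers in the mutant. Some markers that did not pass were lower in both mutant libraries. These were Adgre1 (336 and 323 CPM in mutant cells, against 372 and 386 in WT cells) and Cd68 (303 and 255, against 349 and 343) among the macrophage markers. Among the monocyte markers it was Csf1r (704 and 701, against 846 and 864). All 5 tested eosinophil markers were higher, with sums of 159 and 198 CPM in mutant cells, against 73.1 and 72.2 CPM in WT cells. Among the lists so far only the eosinophil marker Ear1 was at 0 in any library, namely in both WT libraries, against 19 and 25 reads in the mutant libraries. GR1 antibodies bind Ly6G and also Ly6C, and Ly6g and Ly6c2 are counted in the neutrophil and monocyte lists. Ly6g was 20.6-fold higher, with 144 and 123 CPM in mutant cells, against 5.66 and 7.22 CPM in WT cells, and Ly6c2 was 12.8-fold higher, with 378 and 282 CPM in mutant cells, against 26.9 and 24.8 CPM in WT cells. Of the gate's other markers, Itgam (CD11b) was higher in the mutant and Ptprc (CD45) did not pass, and these 2 together had 1981 and 2006 CPM in mutant cells, against 1534 and 1594 CPM in WT cells. Markers of cells outside the gate had lower sums than the granulocyte, monocyte and macrophage lists, though not all were below the eosinophil list. Fibroblast and mural cell markers, 5 of 8 tested higher, summed to 544 and 504 CPM in mutant cells, against 237 and 181 CPM in WT cells, and erythroid markers, 3 of 4 higher, to 61.3 and 164 CPM in mutant cells, against 6.74 and 27.6 CPM in WT cells. Epithelial markers, with 1 of 2 tested lower, summed to 85.8 and 88.4 CPM in mutant cells, against 154 and 161 CPM in WT cells, nearly all of it Cdh1, which fell to 82.5 and 85.01 CPM in mutant cells, against 151 and 158 CPM in WT cells. Krt18 did not pass, with 2.28 and 2.58 CPM in mutant cells, against 1.96 and 2.19 CPM in WT cells, and Krt8, too sparse to test, had 5 and 5 reads in mutant cells, against 0 and 2 in WT cells. Of 5 B cell markers none passed, with sums of 27.6 and 20.5 CPM in mutant cells, against 37.6 and 36.5 CPM in WT cells. Of 4 endothelial markers 2 were tested and 1, Pecam1, was higher. The sums of the 4 were 103 and 79.3 CPM in mutant cells, against 59.7 and 65.02 CPM in WT cells. Nearly all of it was Pecam1, with 97.7 and 75.01 CPM in mutant cells, against 57.2 and 62.7 CPM in WT cells. Of 6 T and NK cell markers 1 was in the table, and it was too sparse to test. The part of these cell types in the results was not tested.

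Of the 40 genes, 19 rose in Trem2 mutant MDSCs, which is 47.5% of them, and none fell. The test called 9.55% of all tested genes higher and 3.6% lower. The other 21 did not pass. Because the 40 genes were chosen with earlier results of these data known, their shares beside those of all genes are a description only. The median log2 fold change of the 40 genes was 0.40, and that of all genes tested was -0.02. The changes were small for the most part. Among the genes that rose, Slc2a3 was 3.92-fold higher, and the other 18 lay between 1.29-fold and 1.84-fold. Both mutant libraries stood above both WT libraries in 34 of the 40 genes (85.0%), a pattern seen in 28.9% of all genes tested. None of the 40 had both mutant libraries below both WT libraries, which was the case for 31.7% of all genes tested. The groups overlapped in the other 6 genes, Aldoa, Tpi1, Bnip3l, Ndrg1, Kdm3a and Ankrd37. Trem2 mutant 1 was above Trem2 mutant 3 in 34 of the 40 genes and in 17 of the 19 that rose.

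**Figure D1:**
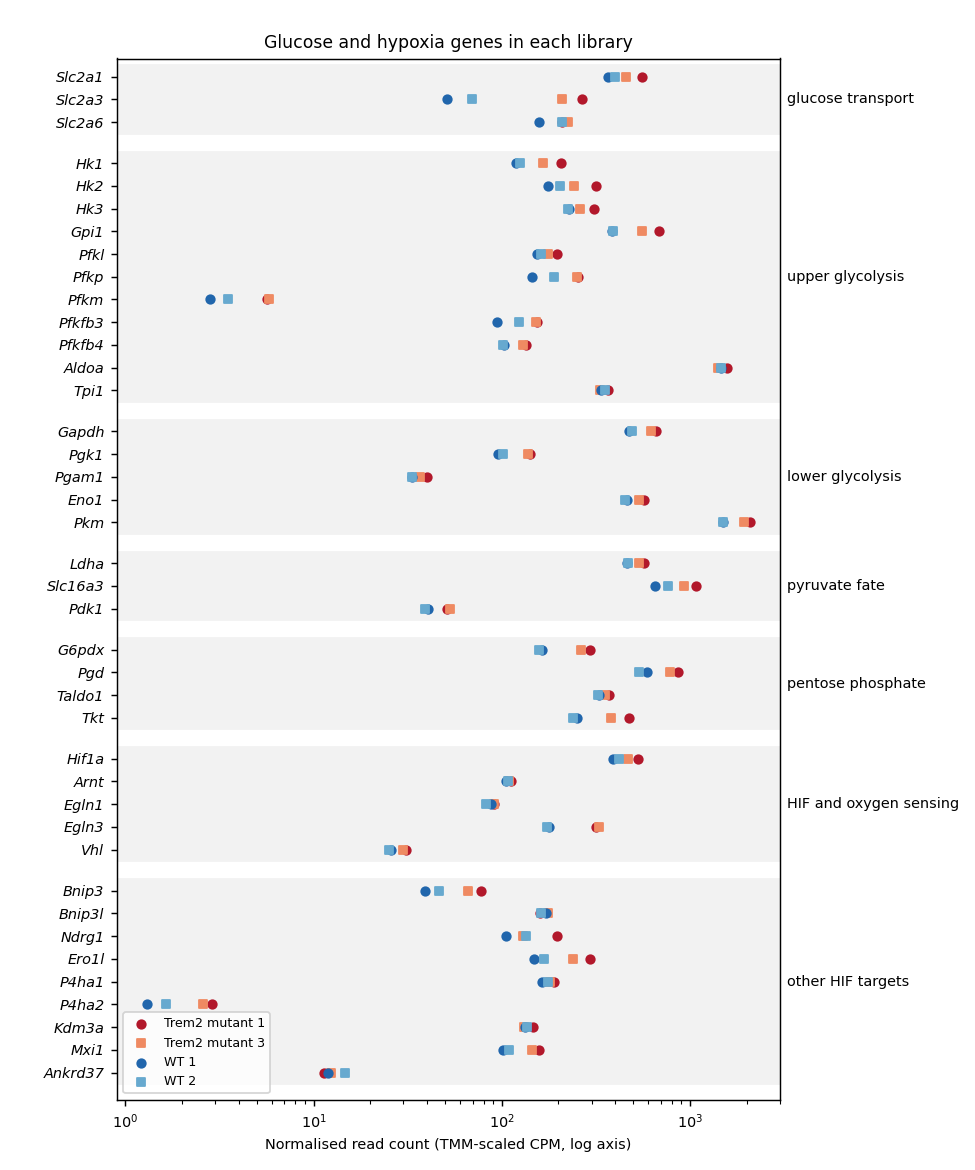
Normalised read count (TMM-scaled CPM, log axis) of each of the 40 genes in Trem2 mutant 1, Trem2 mutant 3, WT 1 and WT 2, grouped by arm, 1 point per library. In 34 genes both mutant points lie to the right of both WT points; with library totals in place of TMM, 17 of the 40 log2 fold changes turned negative.

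These rises are relative to the typical gene. As a plain share of all reads, the 40 genes together took 1.19% and 1.25% in Trem2 mutant 1 and 3, against 1.20% and 1.23% in WT 1 and 2. On this scale the groups overlapped. All reads include those of Gm42418, which took 13.9% in Trem2 mutant 1 and 0.418% in Trem2 mutant 3. In WT 1 and 2 it took 1.04% and 0.258%. Its part in the overlap was not tested. Scaled by library totals alone, the median over all genes tested was -0.40, a shift of all genes by over 0.1, and the median of the 40 genes was 0.02. The distance between both medians was 0.42 with library totals and 0.43 with TMM. On that scale 4 of the 40 genes passed as higher, namely Slc2a3, G6pdx, Tkt and Egln3, and 13% of all calls over all genes were higher, against 72.6% of all calls with TMM.

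**Figure D2:**
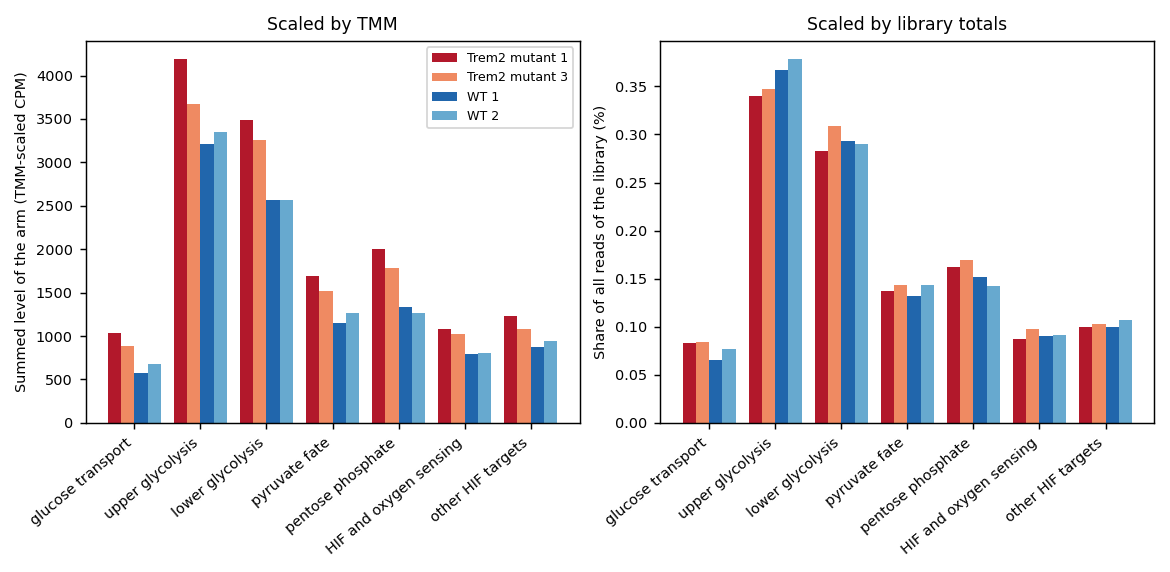
Summed level of each arm in the 4 libraries, as TMM-scaled CPM (left) and as percent of all reads of the library (right), 1 bar per library. On the left every arm is higher in both mutant libraries than in both WT libraries. On the right this holds for glucose transport and the pentose phosphate arm alone, while upper glycolysis is lower in both mutant libraries. All reads include those of Gm42418, which took 13.9% in Trem2 mutant 1.

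Single libraries mattered as well. A fit with 1 library left out has a lone library in that group, and takes its spread from the other group's pair and from other genes. Scaled by library totals, the WT pair was the quieter one (2.01, against 6.22 for the mutant pair, relative to counting noise). The fits use TMM, so these values do not give the spread in them. Whether calls without a mutant library rest on a smaller spread was not tested. Without Trem2 mutant 1, 19 of the 40 genes passed as higher (9.98% of all genes did), and they were the same 19. Without Trem2 mutant 3, 26 passed (14.2% of all genes). Without WT 1, 4 passed (3.25% of all genes), again Slc2a3, G6pdx, Tkt and Egln3, and without WT 2, 10 passed (4.8% of all genes). These 4 genes alone among the 19 kept their call in each of the 13 alternatives to the processing that were tried.

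**Figure D3:**
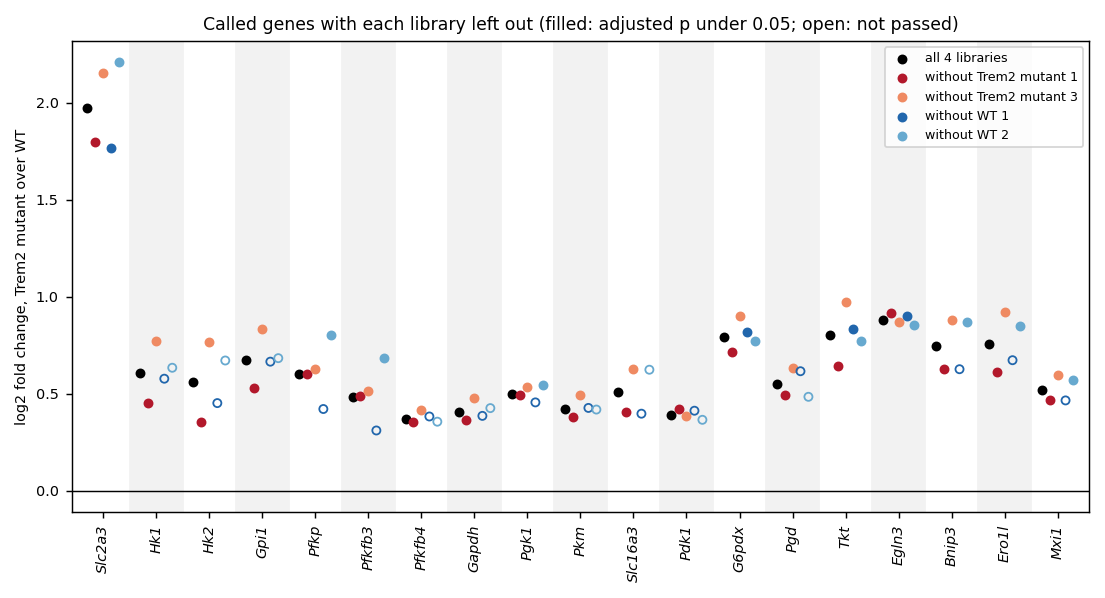
Log2 fold change, Trem2 mutant over WT, of the 19 genes that rose, with all 4 libraries and with each library left out in turn; filled points have an adjusted p under 0.05 and open points do not. All points lie above 0, and Slc2a3, G6pdx, Tkt and Egln3 have filled points throughout; with library totals in place of TMM, Pfkfb4 turned negative.

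In glucose transport, Slc2a3 rose and Slc2a1 and Slc2a6 did not pass. Slc2a3 encodes GLUT3, a high-affinity glucose transporter of neurons and leukocytes, at chr6:122727809-122801640, minus strand (GRCm38). It had 267 and 209.6 CPM in Trem2 mutant 1 and 3, against 51.5 and 69.8 CPM in WT 1 and 2. Both mutant libraries were thus far above both WT libraries, with a mean of 238 ± 40.3 CPM in mutant cells and 60.6 ± 12.9996 CPM in WT cells (SD, n = 2 each). This was a 3.92-fold difference (log2 fold change 1.97, SE 0.165, edgeR adjusted p = 0.000478), the largest of the 40 genes. Slc2a1 encodes GLUT1, the transporter behind basal glucose uptake in most cells, and had the highest level of the 3 per length, 144 CPM per kilobase in mutant cells, against 109 in WT cells. Its libraries read 554 and 457 CPM in Trem2 mutant 1 and 3, against 365 and 399.7 CPM in WT 1 and 2, so the groups were apart, but the difference missed the threshold (log2 fold change 0.40, SE 0.114, edgeR adjusted p = 0.0563). With DESeq2 on all 4 libraries Slc2a1 passed (log2 fold change 0.42, adjusted p = 0.0262). With 1 library left out, its log2 fold change ranged from 0.27 to 0.55, the highest without Trem2 mutant 3. Slc2a6, which encodes GLUT6, a transporter of intracellular membranes in myeloid cells, had 209.99 and 224 CPM in Trem2 mutant 1 and 3, against 158 and 209.7 CPM in WT 1 and 2 (log2 fold change 0.24, SE 0.131, edgeR adjusted p = 0.262). The summed level of the arm was 1031 and 890.1 CPM in mutant cells, against 574 and 679 CPM in WT cells.

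Slc2a3 made up a larger share of the 3 transporters in the mutant. Divided by exon length, it took 14.1% and 12.6% in mutant cells, against 4.43% and 5.10% in WT cells. Both mutant values were thus above both WT values. Slc2a1 took 60.7% and 56.9% in mutant cells, against 64.9% and 60.3% in WT cells, and the groups overlapped. Slc2a6 took 25.1% and 30.5% in mutant cells, against 30.7% and 34.6% in WT cells, lower in the mutant by a gap smaller than the spread within either group. With the length of the main transcript in place of all exons, the share of Slc2a3 was 20.1% and 17.8% in mutant cells, against 6.54% and 7.40% in WT cells. With 2 libraries a group an exact permutation test of such a share cannot give a two-sided p under 0.333, so no test was made.

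Upper glycolysis runs from glucose to the triose phosphates, and 6 of its 11 genes rose, with a median log2 fold change of 0.48 over the arm (0.11 with library totals alone). The gene changed most among them was Gpi1, which encodes the isomerase that turns glucose 6-phosphate into fructose 6-phosphate. It had 681 and 555 CPM in Trem2 mutant 1 and 3, against 385 and 389.8 CPM in WT 1 and 2, so both mutant libraries were above both WT libraries (log2 fold change 0.67, SE 0.113, edgeR adjusted p = 0.00862). The first step, phosphorylation of glucose, is carried out by hexokinases. Hk1, the form of most tissues, had 206 and 165 CPM in Trem2 mutant 1 and 3, against 119 and 124 CPM in WT 1 and 2 (log2 fold change 0.61, SE 0.112, edgeR adjusted p = 0.0127). Hk2, the inducible form that binds mitochondria, had 318 and 241 CPM in Trem2 mutant 1 and 3, against 175 and 204 CPM in WT 1 and 2 (log2 fold change 0.56, SE 0.140, edgeR adjusted p = 0.0391). Trem2 mutant 1 was the highest library for both genes, and both mutant libraries exceeded both WT libraries. With upper-quartile scaling Hk2 did not pass (log2 fold change 0.52, edgeR adjusted p = 0.0513). Hk3, the hexokinase prominent in myeloid cells, had 310.02 and 261 CPM in mutant cells, against 227 and 225 CPM in WT cells and did not pass (log2 fold change 0.34, SE 0.100, edgeR adjusted p = 0.0665). With 1 library left out, the log2 fold change of Hk3 ranged from 0.22 to 0.47, the highest without Trem2 mutant 3.

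Phosphofructokinase commits the sugar to glycolysis, and its platelet form Pfkp rose while the liver form Pfkl and the muscle form Pfkm did not pass. Pfkp had 255 and 251 CPM in Trem2 mutant 1 and 3, against 145 and 189 CPM in WT 1 and 2 (log2 fold change 0.60, SE 0.123, edgeR adjusted p = 0.0188). The mutant libraries were nearly equal, and WT 1 was the lowest of the 4. Pfkl had 195 and 176 CPM in mutant cells, against 154 and 162 CPM in WT cells (log2 fold change 0.23, SE 0.0867, edgeR adjusted p = 0.125). With 1 library left out, the log2 fold change of Pfkl ranged from 0.16 to 0.32, the highest without Trem2 mutant 3. Pfkm was sparse, with 5.63 and 5.80 CPM in mutant cells, against 2.83 and 3.50 CPM in WT cells, and its log2 fold change of 0.85 had an SE of 0.260 and an edgeR adjusted p of 0.0704. Both bifunctional enzymes that make and remove fructose 2,6-bisphosphate, the activator of phosphofructokinase, rose by small amounts. Pfkfb3, whose kinase activity prevails, had 153 and 151 CPM in Trem2 mutant 1 and 3, against 94.9 and 123 CPM in WT 1 and 2 (log2 fold change 0.48, SE 0.120, edgeR adjusted p = 0.0372). Pfkfb4, its relative known as a HIF target, had 135 and 129.6 CPM in Trem2 mutant 1 and 3, against 103 and 101 CPM in WT 1 and 2 (log2 fold change 0.37, SE 0.0761, edgeR adjusted p = 0.0189). In both genes the mutant libraries stood above the WT libraries, by 1.40-fold and 1.29-fold on average. Pfkfb3 did not pass with upper-quartile scaling (log2 fold change 0.45, edgeR adjusted p = 0.0524), nor did Pfkfb4 with DESeq2 (log2 fold change 0.39, adjusted p = 0.0573).

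The last steps of this arm did not pass. Aldoa, the aldolase that splits the 6-carbon sugar, was the most abundant gene of the arm per length, with 510.02 CPM per kilobase in mutant cells, against 505 in WT cells. It had 1568 and 1402 CPM in mutant cells, against 1469 and 1469 CPM in WT cells (log2 fold change 0.02, SE 0.107, edgeR adjusted p = 0.942), and both WT values lay between the mutant values. Tpi1, the triose phosphate isomerase, had 365 and 331 CPM in mutant cells, against 335 and 355 CPM in WT cells (log2 fold change 0.01, SE 0.0902, edgeR adjusted p = 0.940), so its groups overlapped as well. With library totals alone both had a log2 fold change of -0.36. The summed level of the arm was 4192 and 3669 CPM in mutant cells, against 3211 and 3347 CPM in WT cells. As a share of all reads the order was the reverse, 0.340% and 0.348% in mutant cells, against 0.367% and 0.379% in WT cells. All reads include those of Gm42418, which took 13.9% in Trem2 mutant 1, and its part in this order was not tested. No gene of this arm passed without WT 1, when the log2 fold changes were 0.58 for Hk1, 0.45 for Hk2, 0.66 for Gpi1, 0.42 for Pfkp, 0.31 for Pfkfb3 and 0.38 for Pfkfb4. Without WT 2, Pfkp and Pfkfb3 still passed, and the values were 0.63 for Hk1, 0.67 for Hk2, 0.68 for Gpi1 and 0.36 for Pfkfb4.

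The make-up of the enzyme families shifted little. Per length, Hk3 was the leading hexokinase, with a share of 52.1% and 54.3% in mutant cells, against 58.7% and 55.6% in WT cells, lower in both mutant libraries. Hk1 took 14.9% and 14.8% in mutant cells, against 13.3% and 13.2% in WT cells, so that its groups did not overlap. Hk2 took 32.999% and 30.9% in mutant cells, against 27.96% and 31.1% in WT cells, and these overlapped. Among the phosphofructokinases Pfkl took 58.6% and 56.2% in mutant cells, against 66.5% and 61.6% in WT cells, and Pfkp took 38.03% and 40.05% in mutant cells, against 31.1% and 35.7% in WT cells. In the mutant libraries the share of Pfkl was lower and that of Pfkp higher than in both WT libraries, and Pfkl was the leading form in every library when all exons were counted. With the length of the main transcript, Pfkp was at 53.1% and 55.2% in mutant cells, against 45.2% and 50.5% in WT cells, and led in 3 of the 4 libraries. The shares of Pfkfb3 and Pfkfb4, taken without Pfkfb1 and Pfkfb2, overlapped between the groups. Pfkfb3 was at 42.3% and 42.9% in mutant cells, against 37.2% and 43.8% in WT cells.

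**Figure D4:**
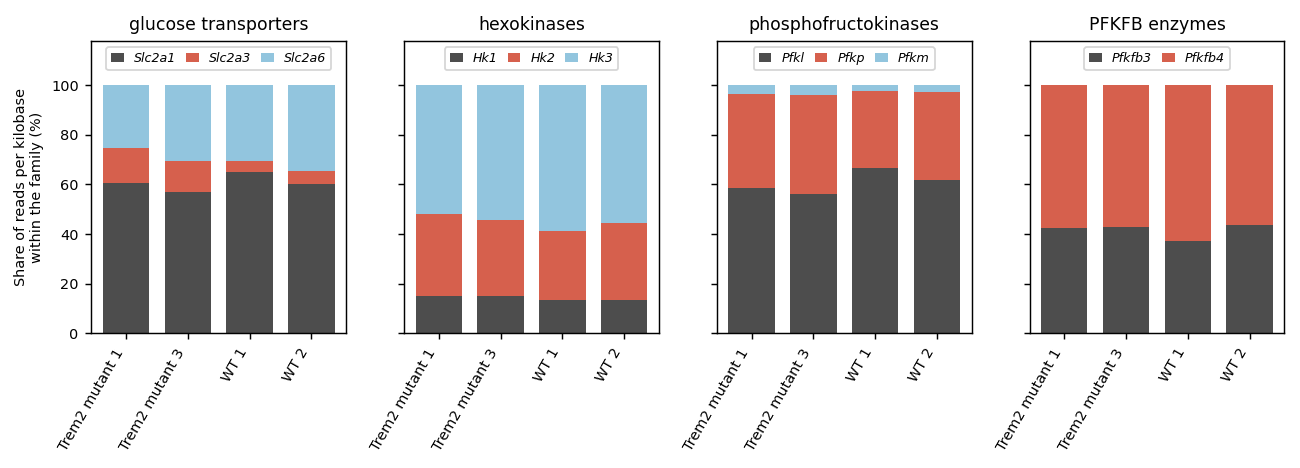
Share of each gene in the reads per kilobase of exon of its family (%), in Trem2 mutant 1, Trem2 mutant 3, WT 1 and WT 2, for the glucose transporters, the hexokinases, the phosphofructokinases and the PFKFB enzymes. Slc2a3 has 14.1% and 12.6% of the transporter signal in mutant cells, against 4.43% and 5.10% in WT cells, and the other families change less.

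Lower glycolysis turns triose phosphate into pyruvate and yields the ATP of the pathway. Of its 5 genes, 3 rose, with a median log2 fold change of 0.41 over the arm (0.0295 with library totals alone) and both mutant libraries above both WT libraries in all 5. Gapdh, the dehydrogenase that oxidises glyceraldehyde 3-phosphate, had 664 and 617 CPM in Trem2 mutant 1 and 3, against 476 and 489.96 CPM in WT 1 and 2 (log2 fold change 0.41, SE 0.0900, edgeR adjusted p = 0.0251). Pgk1, the kinase that makes the first ATP of this stretch, had 141 and 138 CPM in Trem2 mutant 1 and 3, against 95.7 and 102 CPM in WT 1 and 2 (log2 fold change 0.50, SE 0.0783, edgeR adjusted p = 0.00650). Pkm, the pyruvate kinase of most tissues, was the most abundant gene of the arm per length, with 401 CPM per kilobase in mutant cells, against 299 in WT cells. It had 2079 and 1934 CPM in Trem2 mutant 1 and 3, against 1501 and 1493 CPM in WT 1 and 2 (log2 fold change 0.42, SE 0.105, edgeR adjusted p = 0.0378). These 3 genes were 1.33-fold to 1.41-fold higher. With upper-quartile scaling Pkm did not pass (log2 fold change 0.39, edgeR adjusted p = 0.0541). Eno1, the enolase of most tissues, had 568 and 535 CPM in mutant cells, against 459.9 and 449 CPM in WT cells, and Pgam1, the mutase of the step before it, had 39.9 and 36.8 CPM in mutant cells, against 33.5 and 33.3 CPM in WT cells. Neither passed, although their groups were apart. Eno1 had a log2 fold change of 0.28 (SE 0.0870, edgeR adjusted p = 0.0737) and Pgam1 one of 0.20 (SE 0.104, edgeR adjusted p = 0.246). With 1 library left out, the log2 fold change of Eno1 ranged from 0.25 to 0.34, the highest without Trem2 mutant 3.

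Several genes of this arm have copies elsewhere in the genome. Over all 40 genes, 10 had more than 10% of the 75-base stretches of their transcripts in common with another gene, and all 5 of this arm were among them. These shares were 52.8% for Pgk1, 34.9% for Pgam1, 23.0% for Eno1, 22.6% for Gapdh and 17.8% for Pkm, mostly with Pgk1-rs7 for Pgk1, with Eno1b for Eno1 and with 121 genes for Gapdh. For Pkm the largest part, 10.6% of its stretches, was shared with Gm49759. Exons of Gm49759 overlap those of Pkm on the same strand, so this part is not a copy elsewhere. How the authors counted reads that match several genes was not given in the sources used here, so these values are uncertain to that extent. None of the 5 passed without WT 1 (log2 fold changes 0.39 for Gapdh, 0.45 for Pgk1 and 0.43 for Pkm), and without WT 2 Pgk1 alone did, with Gapdh at 0.43 and Pkm at 0.42. The arm summed to 3492 and 3261 CPM in mutant cells, against 2567 and 2566 CPM in WT cells.

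At the fate of pyruvate, 2 of 3 genes rose. Slc16a3 encodes MCT4, the transporter that carries lactate out of glycolytic cells, and it had 1075 and 929.9 CPM in Trem2 mutant 1 and 3, against 650.3 and 761 CPM in WT 1 and 2 (log2 fold change 0.51, SE 0.120, edgeR adjusted p = 0.0323). It was the most abundant of the 3 per length, 188 CPM per kilobase in mutant cells, against 133 in WT cells. Pdk1, the kinase that shuts off pyruvate dehydrogenase and so keeps pyruvate out of mitochondria, had 51.2 and 52.9 CPM in Trem2 mutant 1 and 3, against 40.4 and 39.1 CPM in WT 1 and 2 (log2 fold change 0.39, SE 0.0942, edgeR adjusted p = 0.0343). Both genes had both mutant libraries above both WT libraries, with Slc16a3 1.42-fold and Pdk1 1.31-fold higher. Ldha, the lactate dehydrogenase subunit that favours lactate, had 569.7 and 534 CPM in mutant cells, against 459.8 and 471 CPM in WT cells and did not pass (log2 fold change 0.25, SE 0.0877, edgeR adjusted p = 0.108). With 1 library left out, the log2 fold change of Ldha ranged from 0.21 to 0.31, the highest without Trem2 mutant 3. The calls of Slc16a3 and Pdk1 were lost with either WT library left out: the log2 fold change of Slc16a3 was 0.40 without WT 1 and 0.62 without WT 2, and that of Pdk1 was 0.41 and 0.37. DESeq2 gave Pdk1 a log2 fold change of 0.40 with an adjusted p of 0.156.

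The pentose phosphate arm, which makes NADPH and ribose, had the highest median of the 7, 0.67 on the log2 scale (0.29 with library totals alone), and 3 of its 4 genes rose. G6pdx encodes glucose 6-phosphate dehydrogenase, the rate-limiting entry enzyme, at chrX:74409483-74429194, minus strand. It had 296 and 262 CPM in Trem2 mutant 1 and 3, against 163 and 158 CPM in WT 1 and 2, a mean of 279 ± 23.9 CPM in mutant cells and 161 ± 3.69 CPM in WT cells (SD, n = 2 each), and was 1.73-fold higher (log2 fold change 0.79, SE 0.0898, edgeR adjusted p = 0.00169). Tkt, the transketolase that links the pathway back to glycolysis, at chr14:30548359-30574720, plus strand, had 475 and 379.7 CPM in Trem2 mutant 1 and 3, against 249.98 and 239.9 CPM in WT 1 and 2, a mean of 427 ± 67.5 CPM in mutant cells and 245 ± 7.10 CPM in WT cells (SD, n = 2 each), and was 1.74-fold higher (log2 fold change 0.80, SE 0.116, edgeR adjusted p = 0.00472). In both genes the mutant libraries were clear of the WT libraries, which differed little from each other. Pgd, the dehydrogenase of the third step, had 861 and 787 CPM in Trem2 mutant 1 and 3, against 589 and 537 CPM in WT 1 and 2 (log2 fold change 0.55, SE 0.100, edgeR adjusted p = 0.0122). It did not pass without WT 1 (log2 fold change 0.62) or without WT 2 (0.48). Taldo1, the transaldolase, was the most abundant of the 4 per length, with 167 CPM per kilobase in mutant cells, against 150.5 in WT cells, and had 371 and 354 CPM in mutant cells, against 328 and 326 CPM in WT cells, which did not pass (log2 fold change 0.15, SE 0.0814, edgeR adjusted p = 0.259). The arm summed to 2002 and 1783 CPM in mutant cells, against 1330 and 1261 CPM in WT cells, and as a share of all reads it took 0.162% and 0.169% in mutant cells, against 0.152% and 0.143% in WT cells. Exons of G6pdx overlap those of Ikbkg on the opposite strand, as exons of 15 of the 40 genes do those of some other gene, and whether the counting used strand was not given in the sources used here.

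**Figure D5:**
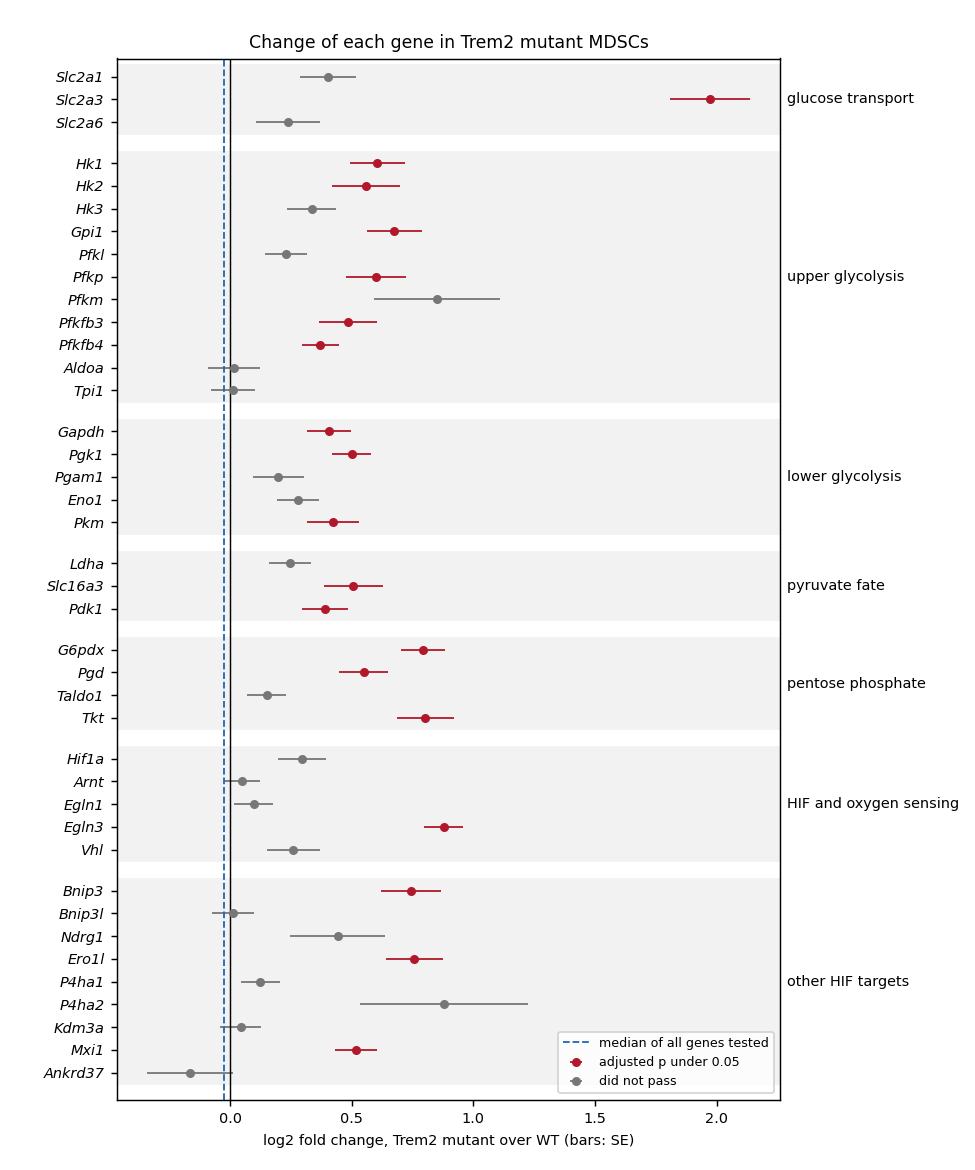
Log2 fold change of each gene, Trem2 mutant over WT, with its SE as a bar, grouped by arm; red points have an adjusted p under 0.05, and the dashed line is the median of all genes tested, -0.02. Slc2a3 stands apart at 1.97, Ankrd37 alone is below 0, and with library totals in place of TMM, 17 further genes fall below 0.

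Of the 5 genes of HIF and oxygen sensing, Egln3 rose and the other 4 did not pass, and the median log2 fold change was 0.26 (-0.11 with library totals alone). Egln3 encodes PHD3, a prolyl hydroxylase that marks HIF for destruction and is itself a HIF target, at chr12:54178981-54203860, minus strand. It had 317 and 329.6 CPM in Trem2 mutant 1 and 3, against 179 and 173 CPM in WT 1 and 2, a mean of 323 ± 9.11 CPM in mutant cells and 176 ± 3.78 CPM in WT cells (SD, n = 2 each), so that the 2 groups were far apart relative to their spread. It was 1.84-fold higher (log2 fold change 0.88, SE 0.0800, edgeR adjusted p = 0.000659) and the most abundant gene of this arm per length in the mutant, with 121 CPM per kilobase in mutant cells, against 66.1 in WT cells. Egln1 encodes PHD2, the main oxygen sensor in most cells, and had 91.4 and 90.6 CPM in mutant cells, against 87.6 and 82.6 CPM in WT cells (log2 fold change 0.10, SE 0.0801, edgeR adjusted p = 0.459). Hif1a, the oxygen-labile subunit, had 531 and 467 CPM in mutant cells, against 391 and 421 CPM in WT cells, and its difference missed the threshold (log2 fold change 0.30, SE 0.0987, edgeR adjusted p = 0.0895). With 1 library left out, the log2 fold change of Hif1a ranged from 0.21 to 0.40, the highest without Trem2 mutant 3. Arnt, the stable partner subunit, had 112 and 109.8 CPM in mutant cells, against 106 and 108 CPM in WT cells (log2 fold change 0.05, SE 0.0750, edgeR adjusted p = 0.698), and Vhl, which recognises hydroxylated HIF for degradation, had 31.03 and 29.9 CPM in mutant cells, against 25.7 and 25.2 CPM in WT cells (log2 fold change 0.26, SE 0.108, edgeR adjusted p = 0.154). For these 4 genes the mutant libraries were above the WT libraries by small steps, and with library totals alone their log2 fold changes were negative, from -0.08 for Hif1a to -0.32 for Arnt. RNA levels do not report HIF protein, whose stability is the regulated step.

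Of the 9 HIF targets outside glycolysis, 3 rose and 6 did not pass, with a median log2 fold change of 0.44. This median was 0.12 without Trem2 mutant 1, 0.27 without WT 1 and 0.0485 with library totals alone. Bnip3, a mitophagy receptor, had 77.9 and 65.9 CPM in Trem2 mutant 1 and 3, against 39.3 and 46.5 CPM in WT 1 and 2 (log2 fold change 0.74, SE 0.124, edgeR adjusted p = 0.00835). Ero1l, the endoplasmic reticulum oxidase that drives disulfide bonds, had 295 and 239 CPM in Trem2 mutant 1 and 3, against 148 and 167 CPM in WT 1 and 2 (log2 fold change 0.76, SE 0.118, edgeR adjusted p = 0.00622). Mxi1, which opposes MYC, had 157 and 144 CPM in Trem2 mutant 1 and 3, against 101 and 109 CPM in WT 1 and 2 (log2 fold change 0.52, SE 0.0854, edgeR adjusted p = 0.00801). In each of the 3 both mutant libraries were above both WT libraries, by 1.67-fold, 1.69-fold and 1.43-fold on average. All 3 passed without WT 2, and none of them without WT 1, with log2 fold changes of 0.63 for Bnip3, 0.67 for Ero1l and 0.47 for Mxi1. Per length Ero1l was the most abundant of the 9 in the mutant, with 50.5 CPM per kilobase in mutant cells, against 29.9 in WT cells. Of the 75-base stretches of Bnip3, 34.4% also occur in another gene's transcripts, so its reads are uncertain to that extent.

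The other 6 had log2 fold changes between -0.16 and 0.88. Bnip3l, the relative of Bnip3 with a like role, had 159 and 176 CPM in mutant cells, against 171 and 161 CPM in WT cells (log2 fold change 0.01, SE 0.0862, edgeR adjusted p = 0.946), with overlapping groups. P4ha1 and P4ha2 encode catalytic subunits of collagen prolyl hydroxylase. P4ha1 had 189 and 179.9 CPM in mutant cells, against 163 and 175 CPM in WT cells (log2 fold change 0.12, SE 0.0814, edgeR adjusted p = 0.345). P4ha2 was sparse, with 24 and 24 reads in mutant cells, against 12 and 15 in WT cells. These were 2.87 and 2.58 CPM in mutant cells, against 1.31 and 1.64 CPM in WT cells (log2 fold change 0.88, SE 0.344, edgeR adjusted p = 0.135). Kdm3a, a histone demethylase, had 146 and 131 CPM in mutant cells, against 133 and 136 CPM in WT cells (log2 fold change 0.04, SE 0.0844, edgeR adjusted p = 0.769), and Ankrd37 had 11.4 and 12.4 CPM in mutant cells, against 11.9 and 14.8 CPM in WT cells (log2 fold change -0.16, SE 0.177, edgeR adjusted p = 0.573), the only log2 fold change below 0 among the 40. Ndrg1, a stress-response gene, had 197 and 129 CPM in mutant cells, against 105 and 135 CPM in WT cells, so Trem2 mutant 1 stood above the other 3 libraries (log2 fold change 0.44, SE 0.196, edgeR adjusted p = 0.175). With 1 library left out, its log2 fold change ranged from 0.12 to 0.74, the highest without Trem2 mutant 3. The 9 genes summed to 1235 and 1080.3 CPM in mutant cells, against 874 and 946 CPM in WT cells.

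HIF binds short sequences around the letters ACGTG or GCGTG, so the promoter windows of the 40 genes were searched for both, on both strands. The windows are RefSeq's for build GRCm38.p6, from 250 bases before to 50 after a transcription start, and 37 of the genes have at least 1 window, 54 in all. Slc2a3, Bnip3l and Ndrg1 have no entry. At least 1 match was found in 42 of the 54 windows (77.8%), against 60.6% of the windows of all genes tested and 43.8% of all 32851 windows. The windows of genes that rose held a match in 19 of 25 cases (76%), and those of genes that did not pass in 23 of 29 (79.3%). The 6 windows shown here are those of 4 genes that rose, Egln3, Bnip3, G6pdx and Tkt, and of 2 that did not pass, Ldha and P4ha1, picked after their match counts had been seen so that both kinds are represented. Each line gives the 250 bases before the start, with its strand, from 5′ to 3′. Capitals mark ACGTG or GCGTG, or, where the match is on the other strand, CACGT or CACGC, and CACGTG, which holds ACGTG on both strands, counts as 2 matches.
Egln3, chr12:54203875-54204124, minus strand: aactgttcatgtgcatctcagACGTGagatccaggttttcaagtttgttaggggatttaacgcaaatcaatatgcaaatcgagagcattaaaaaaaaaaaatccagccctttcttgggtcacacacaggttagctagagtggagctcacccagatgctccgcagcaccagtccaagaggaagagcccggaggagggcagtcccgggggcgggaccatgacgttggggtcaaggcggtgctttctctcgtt
Bnip3, chr7:138909507-138909756, minus strand: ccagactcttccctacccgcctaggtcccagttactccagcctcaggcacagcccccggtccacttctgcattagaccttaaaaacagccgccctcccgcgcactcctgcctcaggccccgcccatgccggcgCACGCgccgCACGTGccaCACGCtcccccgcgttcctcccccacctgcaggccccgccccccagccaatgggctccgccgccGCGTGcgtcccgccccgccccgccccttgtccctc
G6pdx, chrX:74428881-74429130, minus strand: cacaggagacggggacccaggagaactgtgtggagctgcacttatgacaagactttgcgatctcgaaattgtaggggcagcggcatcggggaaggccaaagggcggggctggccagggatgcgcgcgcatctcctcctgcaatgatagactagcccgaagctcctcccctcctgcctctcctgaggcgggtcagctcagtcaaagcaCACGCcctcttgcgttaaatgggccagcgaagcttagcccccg
Tkt, chr14:30548881-30549130, plus strand: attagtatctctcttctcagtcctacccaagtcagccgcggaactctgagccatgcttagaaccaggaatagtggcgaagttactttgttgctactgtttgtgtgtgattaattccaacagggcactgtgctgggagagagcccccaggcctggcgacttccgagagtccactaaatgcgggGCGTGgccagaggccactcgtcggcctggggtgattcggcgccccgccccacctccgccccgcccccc
Ldha, chr7:46845554-46845803, plus strand: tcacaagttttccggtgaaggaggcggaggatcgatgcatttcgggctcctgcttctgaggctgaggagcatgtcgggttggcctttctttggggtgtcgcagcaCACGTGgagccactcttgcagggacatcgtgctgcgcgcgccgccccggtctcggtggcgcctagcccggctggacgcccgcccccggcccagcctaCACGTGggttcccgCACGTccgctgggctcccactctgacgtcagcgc
P4ha1, chr10:59323046-59323295, plus strand: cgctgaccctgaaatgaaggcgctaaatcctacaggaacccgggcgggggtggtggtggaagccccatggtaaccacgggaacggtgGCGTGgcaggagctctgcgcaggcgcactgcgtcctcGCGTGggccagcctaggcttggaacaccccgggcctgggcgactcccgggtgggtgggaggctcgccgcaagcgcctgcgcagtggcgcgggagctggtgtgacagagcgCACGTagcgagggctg

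By this count the stretch of Egln3 holds 1 match, that of Bnip3 5, those of G6pdx and Tkt 1 each, that of Ldha 5 and that of P4ha1 3. Ldha and Bnip3 thus had the same number of matches, with log2 fold changes of 0.25 and 0.74, of which that of Bnip3 passed. The 6-letter form CACGTG was found in 5 of the 54 windows (9.26%), against 9.82% of the windows of all genes tested and 7.15% of all windows. A match is a description of the letters and not of HIF binding.

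The rest of the pathway was followed with 90 further genes, of which 77 were tested. Of these, 12 rose, 2 fell and 63 did not pass, with a median log2 fold change of 0.11. With library totals alone, 8 of these 77 rose and 17 fell, on a scale where 4.56% of all genes tested rose and 30.7% fell. Among 11 other glycolysis genes 2 rose. Adpgk, an ADP-dependent glucokinase, had 193 and 142 CPM in Trem2 mutant 1 and 3, against 40.7 and 38.1 CPM in WT 1 and 2 (log2 fold change 2.09, SE 0.147, edgeR adjusted p = 0.000229), a difference of 4.25-fold. Aldoc, the aldolase best known from brain, had 32.3 and 31.3 CPM in Trem2 mutant 1 and 3, against 15.3 and 13.8 CPM in WT 1 and 2 (log2 fold change 1.13, SE 0.124, edgeR adjusted p = 0.00155). Both genes had mutant libraries clear of the WT libraries. In other transport 1 of 7 genes fell and none rose. Slc37a2, a sugar-phosphate exchanger of macrophages, had 47.2 and 45.8 CPM in Trem2 mutant 1 and 3, against 80.5 and 84.5 CPM in WT 1 and 2 and was 1.77-fold lower (log2 fold change -0.83, SE 0.0871, edgeR adjusted p = 0.00125).

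Of 10 genes of glycogen and gluconeogenesis, 3 rose and none fell. Pygl, the glycogen phosphorylase of liver and leukocytes, had 1254 and 1106 CPM in Trem2 mutant 1 and 3, against 656 and 649 CPM in WT 1 and 2 (log2 fold change 0.85, SE 0.104, edgeR adjusted p = 0.00228). Gbe1, the glycogen branching enzyme, had 53.7 and 48.1 CPM in mutant cells, against 39.1 and 35.1 CPM in WT cells (log2 fold change 0.46, SE 0.109, edgeR adjusted p = 0.0332). In both genes the mutant libraries were above the WT libraries. Gbe1 did not pass without WT 1 (log2 fold change 0.53), without WT 2 (0.38), with library totals alone (0.0773) or with DESeq2 (0.47). Of 12 genes that govern the entry of pyruvate into mitochondria none passed, with a median of -0.05, and of the 7 other pentose phosphate genes none passed, with a median of -0.07.

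Of 10 other regulators of HIF, 1 fell and none rose, with a median of -0.06. It was Cited2, which competes with HIF for its coactivators and is itself a HIF target, with 143 and 129 CPM in Trem2 mutant 1 and 3, against 179 and 175 CPM in WT 1 and 2 (log2 fold change -0.38, SE 0.0843, edgeR adjusted p = 0.0249). It did not pass without WT 1 (log2 fold change -0.37), without WT 2 (-0.40) or with DESeq2 (-0.36). Of 21 other HIF targets, 7 rose and 1, again Cited2, fell. Lox, which crosslinks collagen, had 11.1 and 15.05 CPM in Trem2 mutant 1 and 3, against 3.70 and 3.83 CPM in WT 1 and 2 (log2 fold change 1.80, SE 0.236, edgeR adjusted p = 0.00316). Plin2, which coats lipid droplets, had 581 and 478 CPM in Trem2 mutant 1 and 3, against 257 and 302 CPM in WT 1 and 2 (log2 fold change 0.92, SE 0.124, edgeR adjusted p = 0.00354). In both genes both mutant libraries were above both WT libraries. Among the others, named outside the rule, Hilpda kept its call, while Fam162a, Vegfa and Nos2 did not pass without WT 1. Their log2 fold changes were then 0.57, 0.38 and 1.08. Fam162a and Vegfa also did not pass with library totals alone (0.14 and 0.19), nor did Fam162a with DESeq2 (0.53). Without WT 2 the log2 fold change of Fam162a was 0.47. Lox is also a product of fibroblasts, whose markers summed to 544 and 504 CPM in mutant cells, against 237 and 181 CPM in WT cells, and their part in this result was not tested.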

How the data were processed

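The authors deposited raw counts of reads per Ensembl gene for 4 libraries of sorted tumour MDSCs, and these whole-number counts were used as deposited. The submitters' processing notes name STAR 2.5.2a, FastQC, DESeq2 and the build GRCm38 (mm10). How reads were counted, with or without strand and on which annotation, was not given in the sources used here. Names, positions and exon lengths came from GENCODE M21, which held 17422 of the gene IDs and lacked 54. No gene in the table had fewer than 11 reads in all. The second mutant column carries the number 3, which matches no label number, so it served as an unnumbered library of the mutant group.

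The tests used edgeR 4.0.16 in R 4.3.3, with filterByExpr, TMM scaling and the quasi-likelihood test (two-sided, genotype as the only term), with Benjamini-Hochberg adjustment over all genes tested and a threshold of 0.05. The test was tested on simulated data. Spread was shared across genes (common coefficient of biological variation 0.106, 2 residual and 5.71 prior degrees of freedom), and each SE is the log2 fold change over the square root of F. A floor of 3 reads, which covers counting error only, was 0.322 to 0.359 CPM in the mutant and 0.326 to 0.328 CPM in WT libraries. Alternatives were RLE, library totals or upper-quartile scaling, no filter or a stricter one, the bias-adjusted test, DESeq2 1.42.0, limma-voom (limma 3.58.1), dropping 3540 noncoding or mitochondrial genes, and leaving out each library. With a library left out, the lone library of a group is assumed to vary like the other group.

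The 40 genes and all lists were chosen with earlier results of these data known. Values per library are given for genes that passed and, per arm, for the gene of highest level per length; from each further list, up to 3 genes that passed are named, by lowest p. Of the genes this rule takes, 2 are not reported here. Other values of the 40 genes complete the account. Cell type lists are described by counts and summed levels. The single marker genes were named after their values had been seen.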

Additional observations from a re-analysis of the deposited data

How the results depend on the processing

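No paired analysis was possible because the columns of the 2 genotypes share only the number 1, fewer than the 2 pairs a replicate block needs. Of 520 values of single genes under the 13 alternatives, 439 kept their direction and side of the threshold, 43 lost the threshold, 11 gained it and 27 reversed, 17 of them with library totals alone. With library totals, 650 genes were higher and 4365 lower (1360 and 513 with TMM), and 4 of the 40 genes were higher. The arm medians were then 0.0199 for glucose transport, 0.11 for upper glycolysis, 0.0295 for lower glycolysis, 0.0178 for pyruvate fate, 0.29 for the pentose phosphate arm, -0.11 for HIF and oxygen sensing and 0.0485 for other HIF targets. The reversed values were -0.13 for Slc2a6, -0.0471 for Hk3, -0.15 for Pfkl, -0.0052 for Pfkfb4, -0.36 for Aldoa, Tpi1 and Bnip3l, -0.18 for Pgam1, -0.10 for Eno1, -0.13 for Ldha, -0.23 for Taldo1, -0.0821 for Hif1a, -0.32 for Arnt, -0.28 for Egln1, -0.11 for Vhl, -0.25 for P4ha1 and -0.33 for Kdm3a. Upper-quartile scaling gave -0.021 for Aldoa, -0.0233 for Tpi1, -0.0247 for Bnip3l and a pyruvate fate median of 0.35, and DESeq2 called 198 genes lower. With 1 library left out, genes higher ranged from 489 to 2090, genes lower from 92 to 912, and members of the 40 that were higher from 4 to 26. The arm medians then ranged from 0.29 to 0.55 for glucose transport, 0.35 to 0.63 for upper glycolysis, 0.36 to 0.48 for lower glycolysis, 0.37 to 0.41 for pyruvate fate, 0.57 to 0.76 for the pentose phosphate arm, 0.21 to 0.31 for HIF and oxygen sensing and 0.12 to 0.60 for other HIF targets. Genes that reversed ranged from -0.0579 to 0.11 for Aldoa and -0.024 to 0.1364 for Kdm3a (negative without Trem2 mutant 1), from -0.0494 to 0.1007 for Tpi1 (negative without Trem2 mutant 1 and without WT 1), from -0.0435 to 0.0905 for Bnip3l (negative without Trem2 mutant 3 and without WT 2), and from -0.32 to 0.0015 for Ankrd37 (positive without WT 2). The cause was not tested. The alternatives for Trem2, the further lists and the overall medians, and the second length for the shares within families, were chosen after seeing the data. Depth limits Pfkm and P4ha2, the sparsest of the 40.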
